A study of Homo sapiens with 24 samples.

Results

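The genes described here make, sense, take up and export cholesterol. They were chosen by name: 31 genes, in 3 groups of 19 for synthesis, 8 for control by the SREBP transcription factors and for uptake, and 4 for efflux, out of 23368 genes in the table. All 31 had a row, and 30 had enough counts to be tested, the exception being the exporter ABCG1. Expression was measured by RNA sequencing in AGS, an established line of human gastric adenocarcinoma cells labelled as wild type, which was 1 line in all groups. Cultures were untreated or exposed for 24 h to PI103, an inhibitor of PI3 kinase and mTOR, at 0.7 µM, to PD0325901, an inhibitor of MEK, at 0.035 µM, or to (5Z)-7-oxozeaenol, an inhibitor of TAK1 called oxozeaenol below, at 0.5 µM. PI103 was also combined with oxozeaenol (0.35 µM and 0.25 µM) or with PD0325901 (0.35 µM and 0.0175 µM), so each agent in a combination was at 50% of its single dose. Each of the 6 groups had 4 biological replicates, numbered by batch. The labels do not say whether control cultures received solvent. The title of the series names drug-induced metabolic change, so the question here is how each treatment, and each combination next to its agents, moved the genes of cholesterol metabolism.

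Cells build cholesterol from acetyl-CoA by way of mevalonate, isoprenoid diphosphates and squalene, which is closed to lanosterol and trimmed to cholesterol. When sterols in the endoplasmic reticulum run low, SCAP carries the SREBP precursors to the Golgi, where they are cut to free transcription factors that switch on the synthesis genes. INSIG proteins hold SCAP back when sterols are plentiful. When oxysterols build up, the liver X receptors (NR1H2 and NR1H3) switch on exporters such as ABCA1 and the ubiquitin ligase MYLIP, which marks lipoprotein receptors for degradation.

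Libraries held 38.1 to 84.2 M counts in genes, with a median of 58.9 M. Levels are given as CPM (counts scaled to a common library size of 1 M), in the order of replicates 1 to 4, and changes as log2 fold changes with their standard error (SE). Adjusted p-values come from the quasi-likelihood test of edgeR, adjusted by Benjamini-Hochberg over all 13947 genes tested, and a gene is said to rise or fall only at an adjusted p under 0.05. The sum of 6 epithelial marker genes lay between 5054 and 7931 CPM in all libraries. Of the 6, EPCAM and KRT19 were called higher under all 5 treatments and KRT18 lower under 2. CLDN7 was called higher under 1 and lower under 1, and KRT8 and CLDN4 under none. A list of 6 leukocyte genes summed to 38.9 to 49.3 CPM in control and 188 to 468 CPM in treated libraries. Lysozyme (LYZ) carried nearly all of that sum, with a mean of 44.9 CPM in control and 267 to 389.7 CPM under treatment, while the defining leukocyte genes PTPRC and CD3E stayed at or below 0.0400 CPM in every group mean. Of the 3 leukocyte genes tested, LYZ was called higher under all 5 treatments, and CD68 with PD0325901 (mean 2.33 CPM, log2 fold change 1.49) and PI103 plus PD0325901 (1.65 CPM, 1.00) against 0.826 CPM in control. A list of 6 fibroblast genes summed to 14.3 to 17.4 CPM in control, 32.3 to 34.4 with PI103, 18.2 to 22.4 with PD0325901, 8.18 to 10.0 with oxozeaenol, 9.22 to 11.2 with PI103 plus oxozeaenol and 21.8 to 25.8 with PI103 plus PD0325901. Almost all of it was COL1A1, called higher with PI103, PD0325901 and both together and lower in the other 2 treatments, with COL1A2 and DCN at or near 0. Below 1 CPM in every group mean, COL3A1 was called higher in 3 treatments (by up to 4.28), PDGFRB lower in 4, and LUM higher in 2 and lower in 1. A list of 4 endothelial genes summed to at most 0.452 CPM. The part of these genes in the results below was not tested.

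Nearly all synthesis genes rose with the single agents PD0325901 and oxozeaenol, and 10 to 12 of the 19 rose under each of the other treatments. Of the 19 synthesis genes, PD0325901 raised 18 and lowered 0, where 28.7% of all tested genes rose and 29.9% fell. Oxozeaenol raised 17 and lowered 0, against 25.7% and 26.1% of all genes. PI103 raised 10 and lowered 1, against 26.2% and 25.2% of all genes. The median change over the 19 genes was 0.67 with PD0325901, 0.85 with oxozeaenol and 0.31 with PI103 on the log2 scale, while the medians of all genes were -0.02, 0.02 and 0.02. PI103 plus oxozeaenol raised 12 and lowered 0 (27.7% and 27.9% of all genes), with a median of 0.31. PI103 plus PD0325901 raised 10 and lowered 2 (32.2% and 32.6% of all genes), with a median of 0.27; the medians of all genes were 0.02 and 0.01. The 5 comparisons share the 4 control libraries, so they are not independent of each other. Because the material is bulk RNA scaled to each library's total, a higher level per cell and a larger share of cells with that level cannot be told apart.

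**Figure D1:**
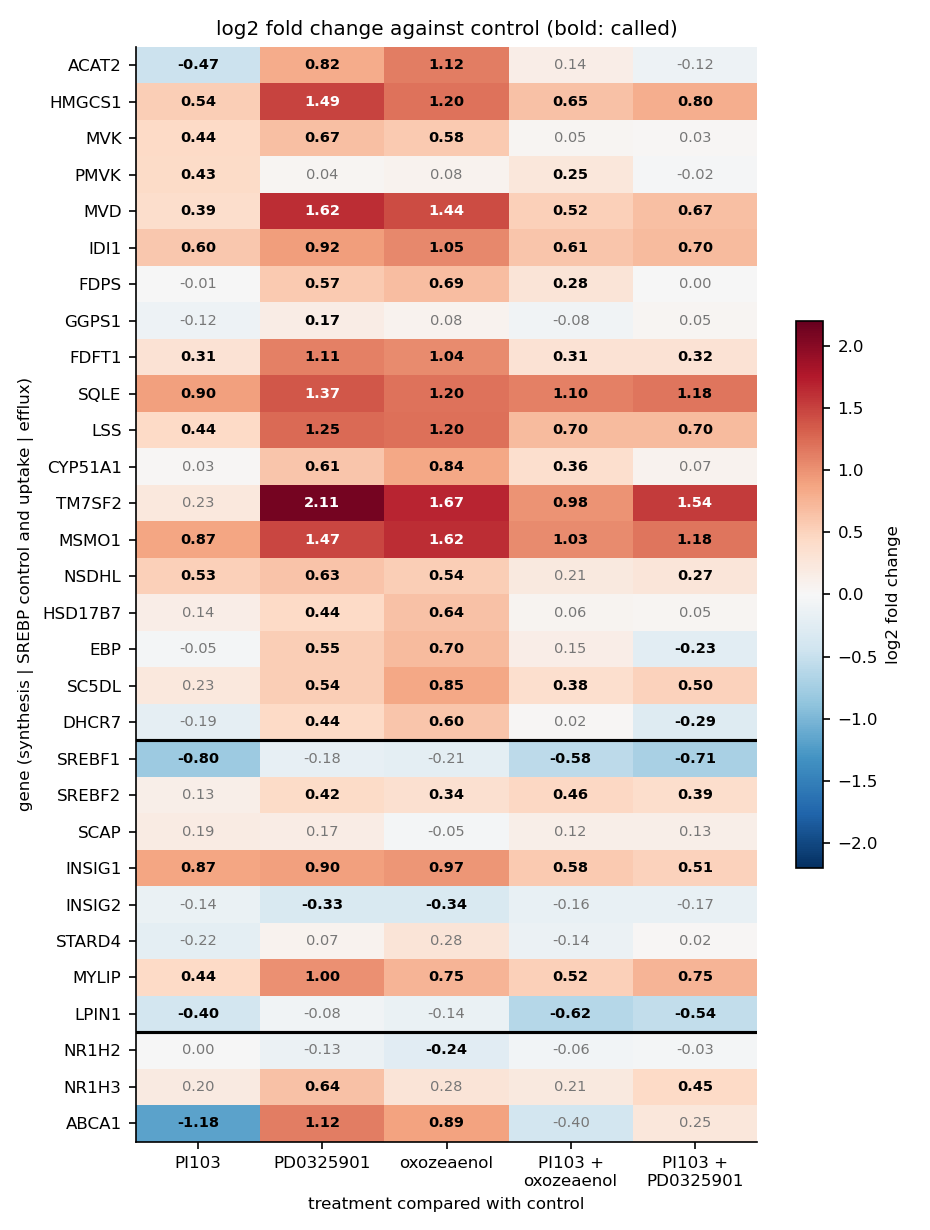
Log2 fold change against control of each tested gene (rows, ordered by role) under each of the 5 treatments (columns); colour and printed value give the change, bold values have an adjusted p under 0.05, and black lines divide synthesis, SREBP control and uptake, and efflux. The PD0325901 and oxozeaenol columns are bold in 18 and 17 of the 19 synthesis rows, and the ABCA1 row runs from -1.18 with PI103 to 1.12 with PD0325901.

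Over all 5 treatments, 9 of the 30 tested genes rose every time, where 11.5% of all genes did, and 0 fell every time, where 13.5% of all genes did. The 9 were HMGCS1, MVD, IDI1, FDFT1, SQLE, LSS, MSMO1, INSIG1 and MYLIP. They include the enzyme that makes HMG-CoA (HMGCS1), the decarboxylase that ends the mevalonate steps (MVD), and the chain of squalene synthase, squalene monooxygenase and lanosterol synthase (FDFT1, SQLE and LSS). SCAP and STARD4 were called under none of the 5. ACAT2, EBP, DHCR7 and ABCA1 were called in both directions.

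The first enzyme of the path, ACAT2, moved in opposite directions. ACAT2, the cytosolic thiolase that joins acetyl-CoA units, measured 141, 173, 176 and 172 CPM in control, 108, 128, 111 and 132 with PI103, 244, 274, 329.7 and 322 with PD0325901 and 302, 366, 409 and 363 with oxozeaenol. With the combinations it measured 157, 193, 185 and 197 CPM (PI103 plus oxozeaenol) and 111, 163, 161 and 176 CPM (PI103 plus PD0325901). All PI103 libraries lay below the control libraries, and all PD0325901 and oxozeaenol libraries lay above them. ACAT2 fell by 0.47 with PI103 (adjusted p = 0.00300, SE 0.126). In the fit of all libraries it was the only synthesis gene that PI103 alone lowered. It rose by 0.82 (adjusted p = 4.2e-06, SE 0.126) with PD0325901 and by 1.12 (adjusted p = 6.36e-08, SE 0.127) with oxozeaenol, with the same sign in 4 of 4 batches each time. In GENCODE release 29, 52.3% of the exon length of ACAT2 lies opposite TCP1 and SOD2, and the sources used here do not say whether the counting used strand, so its reads are uncertain.

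HMGCS1, which makes HMG-CoA and so feeds the mevalonate path, measured 336, 219, 399 and 206 CPM in control, 368, 454, 436 and 429.9 with PI103, 589, 1135, 812 and 730.0 with PD0325901 and 614, 652, 755 and 636 with oxozeaenol. Its combination libraries measured 417, 496, 469 and 438 CPM with PI103 plus oxozeaenol, and 433, 621, 490.0 and 478 CPM with PI103 plus PD0325901. Every treated group except PI103 alone lay wholly above control. HMGCS1 rose by 1.49 (adjusted p = 2.27e-07, SE 0.183) with PD0325901 and by 1.20 (adjusted p = 7.29e-06, SE 0.182) with oxozeaenol, and by 0.54 with PI103 (adjusted p = 0.0147). The PI103 call was lost without control replicate 2 or 4 (0.41 to 0.43, adjusted p up to 0.0670). An antisense gene covers 15.0% of its exon length.

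MVD, which completes isopentenyl diphosphate, measured 28.6, 26, 30.8 and 27.3 CPM in control, 28.3, 44.6, 33.5 and 40.98 with PI103, 68.9, 103, 96.3 and 77.7 with PD0325901 and 69.99, 78.8, 79.3 and 76.98 with oxozeaenol. Its 4 libraries with PI103 plus oxozeaenol held 36.7, 40.96, 41.1 and 43.5 CPM and those with PI103 plus PD0325901 held 40.2, 55.6, 42.2 and 41.1 CPM. PI103 alone overlapped control, and the other 4 treatments did not. MVD rose by 1.62 (adjusted p = 1.17e-10, SE 0.131) with PD0325901 and by 1.44 (adjusted p = 1.82e-09, SE 0.131) with oxozeaenol. Its rise of 0.39 with PI103 (adjusted p = 0.0142) was seen in 3 of 4 batches and was lost without PI103 replicate 2 or 4 (0.28 to 0.33, adjusted p up to 0.0818).

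The kinases upstream of MVD followed another order. MVK, mevalonate kinase, stood at 17.4 ± 1.81 CPM (SD, n = 4) in control and rose with the 3 single agents, by 0.44 (PI103), 0.67 (PD0325901) and 0.58 (oxozeaenol), but not with either combination (0.05 and 0.03). PMVK, phosphomevalonate kinase, measured 33.4, 30.9, 29.8 and 32.01 CPM in control and 41.7, 43.7, 41.4 and 42.99 CPM with PI103, without overlap. PMVK rose by 0.43 (adjusted p = 5.38e-05, SE 0.0780) with PI103 and by 0.25 with PI103 plus oxozeaenol (adjusted p = 0.00897). Its changes with PD0325901 and oxozeaenol alone were 0.04 (adjusted p = 0.705, SE 0.0781) and 0.08 (adjusted p = 0.432, SE 0.0782). It was the only synthesis gene called with PI103 and not with PD0325901 alone.

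Among the isoprenoid enzymes, IDI1, the isomerase of isopentenyl diphosphate, stood at 149.9 ± 27.4 CPM (SD, n = 4) in control and rose by 0.60 with PI103, 0.92 with PD0325901 and 1.05 with oxozeaenol. FDPS, which makes farnesyl diphosphate, rose by 0.57 with PD0325901 and 0.69 with oxozeaenol, while its change with PI103 was -0.01 (adjusted p = 0.912, SE 0.0856). GGPS1, which leads away from sterols to geranylgeranyl diphosphate, moved least: its only call was a rise of 0.17 with PD0325901 (adjusted p = 0.0479), lost when any of replicates 1, 3 or 4 of control or of PD0325901 was left out (0.15 to 0.18, adjusted p up to 0.114). Overlaps with other genes make these reads uncertain: 14.8% of IDI1 and 18.6% of FDPS exon length lie opposite antisense genes, FDPS has 8 named pseudogenes, and 37.3% of GGPS1 lies in exons of TBCE on the same strand.

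The squalene steps rose under all treatments. SQLE, squalene monooxygenase, measured 136, 96.2, 170.4 and 91.4 CPM in control, 198, 254, 231 and 239.9 with PI103, 242, 419, 332 and 288 with PD0325901 and 278, 256, 283 and 317 with oxozeaenol. With PI103 plus oxozeaenol the values were 255, 264, 258 and 284 CPM, and with PI103 plus PD0325901 271, 296, 267 and 288 CPM. No treated library overlapped control. SQLE rose by 0.90 (adjusted p = 3.13e-05, SE 0.155) with PI103, by 1.37 (adjusted p = 5.64e-08, SE 0.157) with PD0325901 and by 1.20 (adjusted p = 6.96e-07, SE 0.156) with oxozeaenol, and by 1.10 and 1.18 with the combinations. LSS, which closes squalene epoxide to lanosterol, rose by 0.44 with PI103, 1.25 with PD0325901, 1.20 with oxozeaenol and 0.70 and 0.70 with the combinations.

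FDFT1, squalene synthase and the first step committed to sterols, stood at 272 ± 25.1 CPM (SD, n = 4) in control and rose by 1.11 with PD0325901 and 1.04 with oxozeaenol. Its rises with PI103 (0.31), PI103 plus oxozeaenol (0.31) and PI103 plus PD0325901 (0.32) were smaller and depended on single libraries. The PI103 call was lost without control replicate 1, 2 or 4 or PI103 replicate 2 or 4 (0.27 to 0.30, adjusted p up to 0.0791). The call with oxozeaenol added was lost without control replicate 1, 2 or 4 or combination replicate 2 or 3 (0.28 to 0.30, adjusted p up to 0.0686), and that with PD0325901 added without control replicate 1 or 4 or combination replicate 2 (0.23 to 0.29, adjusted p up to 0.0981).

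**Figure D2:**
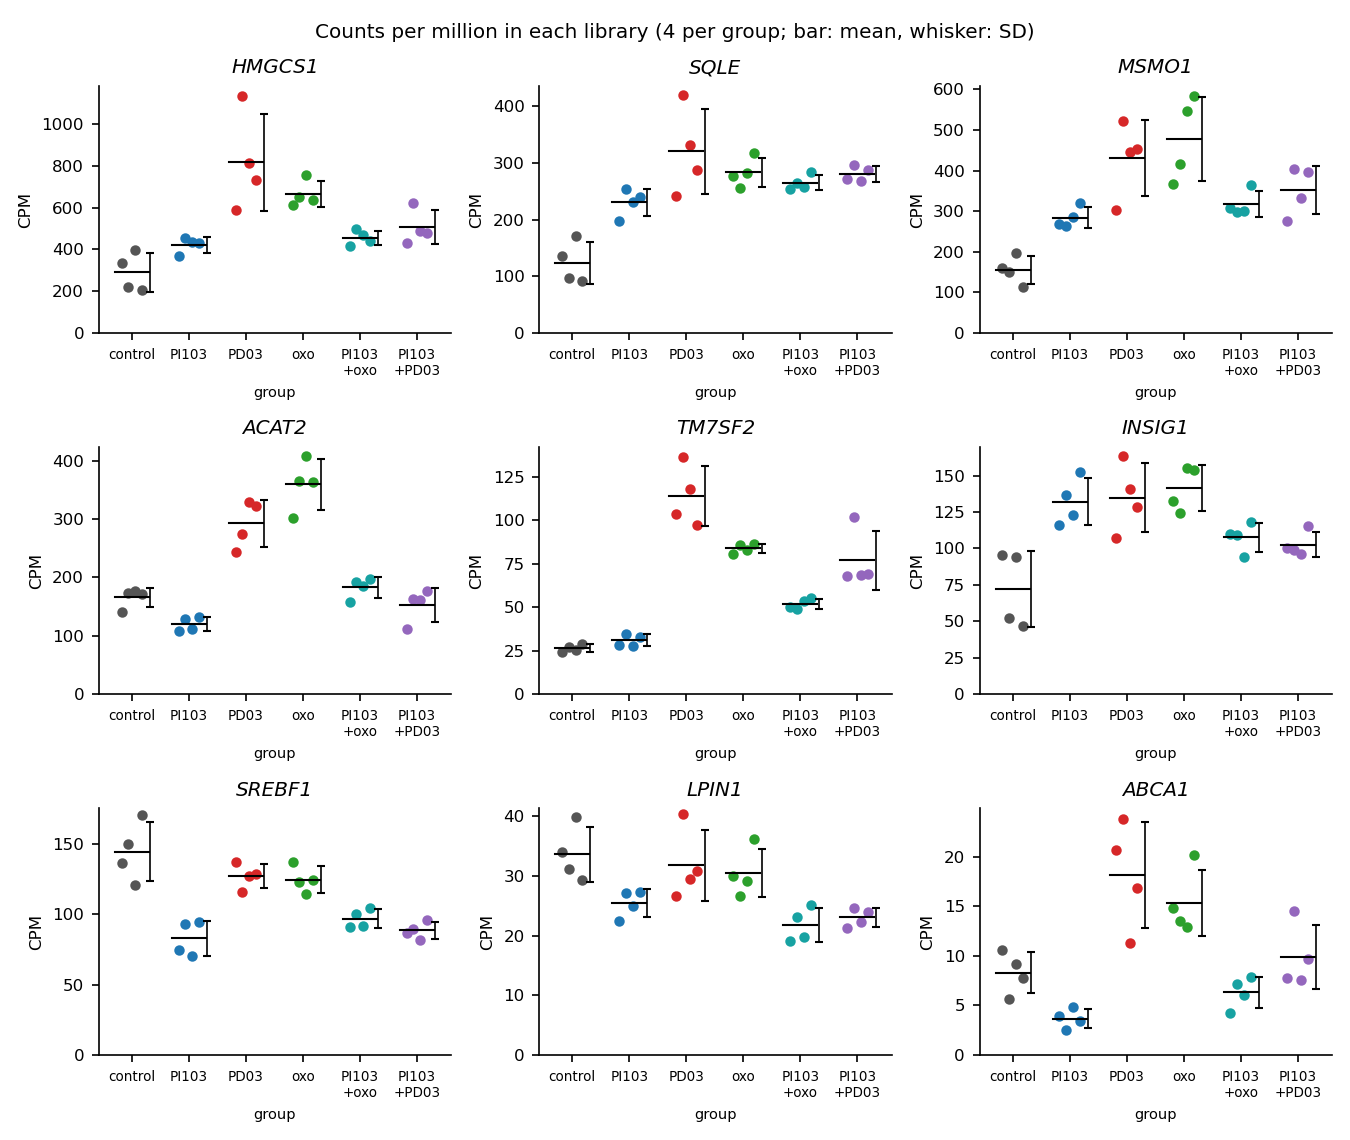
Level in CPM (vertical axis, from 0) in each of the 24 libraries for HMGCS1, SQLE, MSMO1, ACAT2, TM7SF2, INSIG1, SREBF1, LPIN1 and ABCA1, with each point 1 library, each bar the mean of 4 and each whisker the SD. Group names are shortened, PD03 for PD0325901 and oxo for oxozeaenol. The ABCA1 points with PI103 alone lie below all control points and those with PD0325901 or oxozeaenol alone lie above them, whereas every treated SQLE point lies above control.

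Of the enzymes that turn lanosterol into cholesterol, TM7SF2, a sterol reductase of the endoplasmic reticulum, had the largest rises with PD0325901 and oxozeaenol. It measured 24.1, 27.3, 25.2 and 29.03 CPM in control, 28.3, 34.5, 27.5 and 33.1 with PI103, 104, 137, 118 and 97.5 with PD0325901 and 80.9, 85.6, 82.9 and 86.2 with oxozeaenol. Its libraries with PI103 plus oxozeaenol held 50.03, 49.2, 53.7 and 55.3 CPM and those with PI103 plus PD0325901 held 68.1, 102, 68.3 and 69.2 CPM. PI103 alone overlapped control and the other 4 treatments lay above it. TM7SF2 rose by 2.11 (adjusted p = 2.68e-13, SE 0.121) with PD0325901, by 1.67 (adjusted p = 2.61e-11, SE 0.119) with oxozeaenol and by 1.54 (adjusted p = 2.75e-11, SE 0.119) with PI103 plus PD0325901, while its change with PI103 alone was 0.23 (adjusted p = 0.111, SE 0.117).

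MSMO1 is a methylsterol monooxygenase that acts in removing methyl groups from the sterol. It measured 160.2, 150.3, 197 and 112 CPM in control and 268, 264, 285 and 319 with PI103. MSMO1 levels were 302, 523, 445 and 453 CPM with PD0325901 and 366, 417, 546 and 584 CPM with oxozeaenol. In the combinations it measured 307, 298, 299 and 364 CPM with oxozeaenol and 276, 404, 332 and 396 CPM with PD0325901. All treated libraries lay above all control libraries. MSMO1 rose by 0.87 (adjusted p = 0.000146, SE 0.170) with PI103, by 1.47 (adjusted p = 1.02e-07, SE 0.172) with PD0325901 and by 1.62 (adjusted p = 3.97e-08, SE 0.173) with oxozeaenol. NSDHL, which acts after MSMO1 on the same methyl groups, rose by 0.53, 0.63 and 0.54 with the 3 single agents in that order, without overlap with control. With PI103 plus PD0325901 NSDHL rose by 0.27, a call lost without control replicate 2 or 4 or combination replicate 2 (0.20 to 0.21, adjusted p up to 0.106), and with PI103 plus oxozeaenol its change was 0.21 (adjusted p = 0.0773, SE 0.102).

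The remaining post-lanosterol enzymes responded to PD0325901 and oxozeaenol. CYP51A1, lanosterol demethylase, rose by 0.61 with PD0325901 and 0.84 with oxozeaenol, and with PI103 its change was 0.03 (adjusted p = 0.845, SE 0.119). Its rise of 0.36 with PI103 plus oxozeaenol was lost without control replicate 4 (0.28, adjusted p up to 0.0562), and 79.4% of its exon length is shared with other annotated genes on the same strand. HSD17B7, a ketoreductase with 2 named pseudogenes, rose by 0.64 with oxozeaenol and by 0.44 with PD0325901. The latter was lost without control replicate 1 or 3 or PD0325901 replicate 3 or 4 (0.33 to 0.38, adjusted p up to 0.132). SC5DL, a sterol desaturase now named SC5D, rose by 0.85 with oxozeaenol, 0.54 with PD0325901, 0.38 with PI103 plus oxozeaenol and 0.50 with PI103 plus PD0325901. With PI103 alone its change was 0.23 (adjusted p = 0.0985, SE 0.116), which passed the test in a paired fit with a replicate block (adjusted p = 0.0254).

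EBP, a sterol isomerase, and DHCR7, the reductase that completes cholesterol, were the 2 synthesis genes that PI103 plus PD0325901 lowered. EBP stood at 90.2 ± 5.88 CPM (SD, n = 4) in control, 132 ± 17.3 CPM (SD, n = 4) with PD0325901 and 76.8 ± 7.20 CPM (SD, n = 4) with PI103 plus PD0325901. DHCR7 stood at 115 ± 2.25 CPM (SD, n = 4), 156 ± 11.3 CPM (SD, n = 4) and 94.6 ± 1.98 CPM (SD, n = 4) in the same groups. EBP rose by 0.55 and DHCR7 by 0.44 with PD0325901 alone, and with oxozeaenol they rose by 0.70 and 0.60. With the combination EBP fell by 0.23 (adjusted p = 0.0346, SE 0.0948) and DHCR7 fell by 0.29 (adjusted p = 0.00731, SE 0.0904), neither overlapping control. The EBP call was lost without control replicate 3 or 4 or combination replicate 1 or 4 (-0.24 to -0.17, adjusted p up to 0.137). With PI103 alone DHCR7 was not called, and in fits without 1 library its change ran from -0.28 to -0.11. It was called lower without PI103 replicate 2 or 4 (adjusted p down to 0.0115).

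Sequences before the start sites of 4 genes that rose are given as examples. Each of the 4 holds CCAAT, but other genes that rose, such as IDI1, do not, so the 4 do not stand for the rest. As background, SREBP proteins act with the CCAAT-binding factor at promoters of sterol genes. Whether either factor had a part in the rises was not tested. They come from RefSeq on GRCh38.p14, in which 27 of the 31 genes were matched, and each run is the 250 bases before the annotated start, 5′ to 3′ on the gene's strand. Capitals mark CCAAT, read as ATTGG where it lies on the opposite strand, and, for SREBF2, TCACNCCAC, a form of the sterol regulatory element. HMGCS1 lies on the minus strand (chr5:43313413-43313662), MVD on the minus strand (chr16:88663092-88663341), MSMO1 on the plus strand (chr4:165327419-165327668) and SREBF2 on the plus strand (chr22:41832855-41833104).
HMGCS1: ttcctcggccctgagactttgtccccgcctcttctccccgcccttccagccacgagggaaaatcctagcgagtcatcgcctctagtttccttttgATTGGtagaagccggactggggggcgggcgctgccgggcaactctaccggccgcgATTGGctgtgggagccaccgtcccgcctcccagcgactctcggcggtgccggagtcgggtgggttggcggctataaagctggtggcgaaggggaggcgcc
MVD: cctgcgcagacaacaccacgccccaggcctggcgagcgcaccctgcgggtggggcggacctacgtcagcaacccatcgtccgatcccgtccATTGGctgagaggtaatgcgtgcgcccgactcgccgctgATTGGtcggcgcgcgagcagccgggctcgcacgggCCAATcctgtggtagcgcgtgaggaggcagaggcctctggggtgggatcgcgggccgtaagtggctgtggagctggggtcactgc
MSMO1: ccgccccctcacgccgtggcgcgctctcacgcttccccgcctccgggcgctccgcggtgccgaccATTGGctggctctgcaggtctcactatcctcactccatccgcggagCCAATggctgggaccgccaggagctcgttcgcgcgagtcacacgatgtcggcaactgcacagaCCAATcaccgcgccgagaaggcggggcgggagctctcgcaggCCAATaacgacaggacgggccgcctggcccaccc
SREBF2: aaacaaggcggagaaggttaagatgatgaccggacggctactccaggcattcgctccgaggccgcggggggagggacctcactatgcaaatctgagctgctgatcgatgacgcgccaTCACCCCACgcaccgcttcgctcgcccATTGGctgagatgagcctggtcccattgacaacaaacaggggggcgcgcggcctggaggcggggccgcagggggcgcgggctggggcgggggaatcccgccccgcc
In windows of 300 bases that run to 50 bases past the start, CCAAT on either strand was found in 12 of 16 synthesis genes (75.0%), 4 of 8 genes of SREBP control and uptake and 0 of 3 efflux genes, against 9747 of 27305 promoters in the table (35.7%). Counted in its window, HMGCS1 held 2 matches, MVD 3, MSMO1 4 and SREBF2 1. TCACNCCAC on either strand was found in 1 of the 27 genes, SREBF2 at position -133, and in 313 of 27305 promoters (1.15%). In NSDHL, 1 CCAAT shares 2 bases with a match on the other strand, and both are among the 5 matches counted there. The synthesis genes PMVK, IDI1, GGPS1 and CYP51A1 held neither motif, and IDI1 rose under all 5 treatments and CYP51A1 under 3. A match describes the letters only. ACAT2, FDFT1, SQLE and ABCG1 had no entry.

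Among the genes that control SREBP and uptake, SREBF1 and LPIN1 fell with PI103 and both combinations, while SREBF2, INSIG1 and MYLIP rose under most treatments. Of the 8 genes, 2 rose and 2 fell with PI103, 3 rose and 1 fell with PD0325901 and with oxozeaenol, and 3 rose and 2 fell with each combination. Of all genes, 26.2% rose and 25.2% fell with PI103, 28.7% and 29.9% with PD0325901, 25.7% and 26.1% with oxozeaenol, 27.7% and 27.9% with PI103 plus oxozeaenol, and 32.2% and 32.6% with PI103 plus PD0325901, so the counts lie near the share of all genes. The medians were -0.01, 0.12, 0.12, -0.01 and 0.08 in that order.

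SREBF1, which encodes the SREBP forms that lean towards fatty acid synthesis, measured 136, 150.3, 121 and 171 CPM in control, 74.4, 92.9, 70.5 and 94.7 with PI103, 137, 116, 127 and 128 with PD0325901 and 137, 123, 114 and 124 with oxozeaenol. With the combinations it measured 90.9, 100.3, 91.5 and 105 CPM (oxozeaenol) and 86.5, 89.7, 81.9 and 96.2 CPM (PD0325901). The 3 groups that received PI103 lay wholly below control. SREBF1 fell by 0.80 (adjusted p = 4.57e-07, SE 0.103) with PI103, by 0.58 (adjusted p = 3.41e-05, SE 0.103) with PI103 plus oxozeaenol and by 0.71 (adjusted p = 1.38e-06, SE 0.103) with PI103 plus PD0325901. Its changes with PD0325901 and oxozeaenol alone were -0.18 (adjusted p = 0.125, SE 0.102) and -0.21 (adjusted p = 0.0837, SE 0.102), the latter called with the replicate block (adjusted p = 0.0403).

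SREBF2, which encodes the SREBP that mainly drives cholesterol synthesis, measured 153, 153, 147 and 161 CPM in control, 152, 179, 164 and 175 with PI103, 219, 238, 178 and 183 with PD0325901 and 213, 189, 183 and 194 with oxozeaenol. It rose by 0.42 (adjusted p = 0.000198, SE 0.0866) with PD0325901, by 0.34 (adjusted p = 0.00170, SE 0.0866) with oxozeaenol, and by 0.46 and 0.39 with the combinations, each without overlap with control. With PI103 alone the change was 0.13 (adjusted p = 0.229, SE 0.0865). SREBF2 was thus called in the 4 treatments other than PI103, and SREBF1 in the 3 that contained it.

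INSIG1, which holds SCAP in the endoplasmic reticulum and is itself an SREBP target, measured 95.4, 51.98, 94.3 and 46.9 CPM in control, 116, 136, 123 and 152 with PI103, 107, 164, 141 and 128 with PD0325901 and 132, 124, 155 and 154 with oxozeaenol. It rose by 0.87 (adjusted p = 0.000217, SE 0.176) with PI103, by 0.90 (adjusted p = 0.000111, SE 0.176) with PD0325901 and by 0.97 (adjusted p = 6.82e-05, SE 0.176) with oxozeaenol. With the combinations INSIG1 rose by 0.58 (oxozeaenol) and 0.51 (PD0325901), and the last call was lost without control replicate 2 or 4 (0.35 to 0.38, adjusted p up to 0.0657). INSIG2, its relative with the same role, stood at 45.7 ± 4.31 CPM (SD, n = 4) in control. INSIG2 fell by 0.33 with PD0325901 and by 0.34 with oxozeaenol, without overlap with control, and its other changes lay between -0.17 and -0.14. SCAP, the escort itself, changed by -0.05 to 0.19 and was not called, though with PI103 it passed in the paired fit (adjusted p = 0.0363).

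MYLIP, the ligase that removes lipoprotein receptors, measured 20.6, 17.8, 22.5 and 20.5 CPM in control, 28.3, 26.9, 27.9 and 27.3 with PI103, 40.2, 44.5, 40.9 and 37.9 with PD0325901 and 37.3, 33.2, 34.6 and 31.9 with oxozeaenol. Its combination libraries measured 27.2, 30.9, 29.6 and 29.3 CPM with oxozeaenol and 29.9, 39.5, 32.2 and 35.3 CPM with PD0325901. No treated library overlapped control. MYLIP rose by 0.44 (adjusted p = 0.000137, SE 0.0861) with PI103, by 1.00 (adjusted p = 3.24e-10, SE 0.0864) with PD0325901 and by 0.75 (adjusted p = 8.15e-08, SE 0.0863) with oxozeaenol. LPIN1, a phosphatidate phosphatase that also restrains SREBP in the nucleus when mTOR is inactive, stood at 33.6 ± 4.65 CPM (SD, n = 4) in control. Its level with PI103 was 25.4 ± 2.30 CPM (SD, n = 4). LPIN1 fell by 0.40 with PI103, 0.62 with PI103 plus oxozeaenol and 0.54 with PI103 plus PD0325901, each time below all control libraries. STARD4, a carrier of cholesterol between membranes, stood at 16.2 ± 1.91 CPM (SD, n = 4) in control and changed by -0.22 to 0.28, called under none.

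Of the efflux genes, ABCA1, the exporter that loads cholesterol onto apolipoprotein A-I, moved in opposite directions. ABCA1 measured 10.6, 5.70, 9.16 and 7.82 CPM in control, 3.89, 2.53, 4.87 and 3.44 with PI103, 20.7, 23.9, 11.3 and 16.8 with PD0325901 and 14.8, 13.6, 12.9 and 20.2 with oxozeaenol. With PI103 plus oxozeaenol the 4 libraries held 4.21, 7.13, 6.10 and 7.88 CPM, and with PI103 plus PD0325901 7.73, 14.5, 7.61 and 9.70 CPM. PI103 libraries lay wholly below control, those of PD0325901 and oxozeaenol wholly above, and both combinations overlapped it. ABCA1 fell by 1.18 (adjusted p = 0.000549, SE 0.259) with PI103, rose by 1.12 (adjusted p = 0.00044, SE 0.248) with PD0325901 and by 0.89 (adjusted p = 0.00462, SE 0.248) with oxozeaenol, each with the same sign in 4 of 4 batches. The combinations changed it by -0.40 (adjusted p = 0.181, SE 0.252) with oxozeaenol and 0.25 (adjusted p = 0.397, SE 0.248) with PD0325901.

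The liver X receptor genes changed less. NR1H3 measured 4.66, 4.79, 4.78 and 5.97 CPM in control and 6.95, 8.41, 8.12 and 7.96 CPM with PD0325901, without overlap, and rose by 0.64 (adjusted p = 0.000775, SE 0.151). With PI103 plus PD0325901 NR1H3 rose by 0.45, a call lost without combination replicate 2 (0.28, adjusted p up to 0.0958). NR1H2 fell by 0.24 (adjusted p = 0.0143, SE 0.0812) with oxozeaenol, a call lost without oxozeaenol replicate 4 (-0.18, adjusted p up to 0.0753), and its other changes lay between -0.13 and 0.00. ABCG1, which exports cholesterol to high-density lipoprotein, had 2, 3, 1 and 4 counts in the control libraries and at most 1 count in any treated library, with 0 in all 12 libraries of PI103, oxozeaenol and their combination. ABCG1 was too low to test, and no fold is given. Of the 3 tested efflux genes, 1 fell with PI103, 2 rose with PD0325901, 1 rose and 1 fell with oxozeaenol, 0 were called with PI103 plus oxozeaenol, and 1 rose with PI103 plus PD0325901. Among all genes 25.7% to 32.2% rose and 25.2% to 32.6% fell over the treatments, and 3 genes are too few to set apart from these shares.

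Library by library, the synthesis genes separated PD0325901, oxozeaenol and PI103 plus oxozeaenol from control in all 4 replicates. The measure is the median over the 19 genes of the log2 level minus the control mean. It ran from -0.04 to 0.16 in control, 0.11 to 0.45 with PI103, 0.40 to 0.91 with PD0325901 and 0.72 to 1.00 with oxozeaenol. With PI103 plus oxozeaenol it ran from 0.26 to 0.40, and with PI103 plus PD0325901 from 0.11 to 0.45. PD0325901 replicate 1, at 0.40, was the lowest of its group and lay within the range of PI103. PI103 replicate 1 (0.11) and replicate 1 of its combination with PD0325901 (0.11) lay within the control range, whose top was replicate 3 (0.16).

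**Figure D3:**
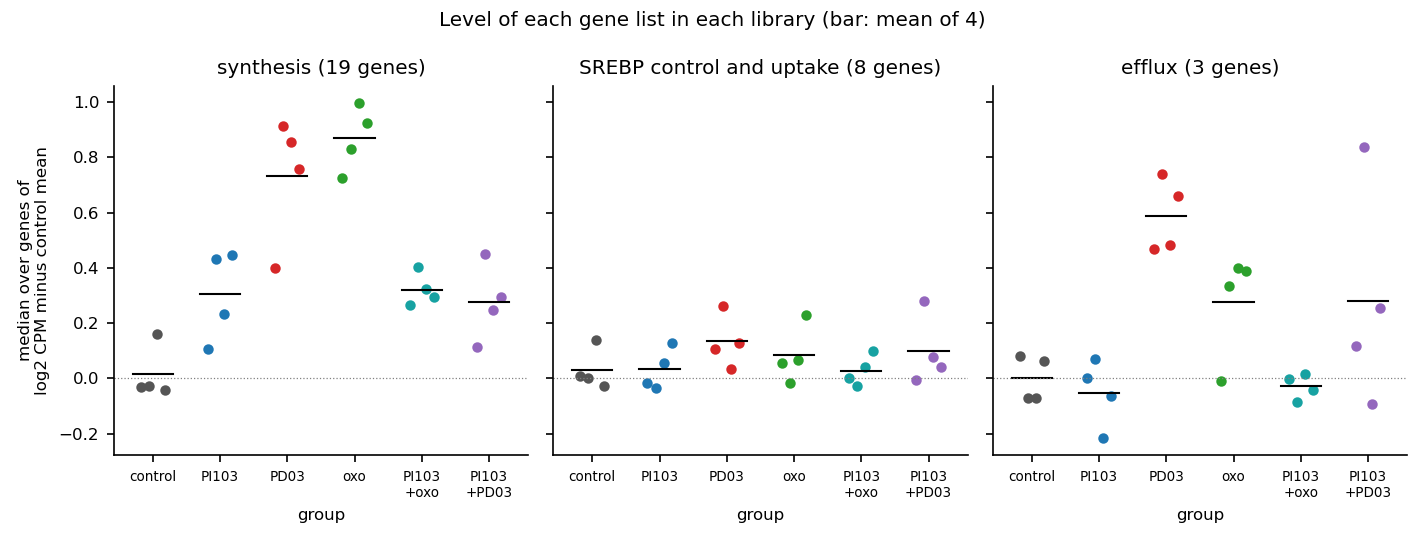
For each of the 24 libraries, the median over the genes of a group of the log2 level minus the control mean (vertical axis), by treatment group in 1 panel for each set of genes, with each point 1 library and each bar the mean of 4. PD03 is PD0325901 and oxo is oxozeaenol. The oxozeaenol points of the synthesis genes (0.72 to 1.00) lie above all points of control, PI103 and both combinations.

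Compared directly, PD0325901 and oxozeaenol each raised the synthesis genes above PI103, and few of these genes were called between the 2. Against PI103, PD0325901 was higher in 14 of 19 synthesis genes and lower in 1 (PMVK), where 22.9% of all genes were higher and 21.7% lower. Oxozeaenol was higher than PI103 in 15 and lower in 1 (again PMVK), against 22.5% and 20.6% of all genes. The medians of these differences were 0.59 and 0.70. Some of these calls were lost without 1 library. For oxozeaenol, GGPS1 lost its call in 6 of 8 such fits (0.16 to 0.20, adjusted p up to 0.106). IDI1 (0.36 to 0.43, adjusted p up to 0.0970) and HSD17B7 (0.39 to 0.47, adjusted p up to 0.0989) lost theirs in 4 of 8. For PD0325901, SC5DL lost its call in 4 of 8 (0.23 to 0.31, adjusted p up to 0.129). All 3 agents were given at their own single doses, so the comparison is of these treatments and not of equal concentrations.

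The widest of these gaps were at ABCA1, TM7SF2, ACAT2 and MVD. ABCA1 was higher by 2.30 (adjusted p = 1.78e-07, SE 0.262) with PD0325901 than with PI103 and by 2.06 (adjusted p = 1.06e-06, SE 0.262) with oxozeaenol. TM7SF2 was higher by 1.89 (adjusted p = 4.32e-12, SE 0.120) and 1.44 (adjusted p = 5.11e-10, SE 0.119), and MVD by 1.23 (adjusted p = 2.54e-08, SE 0.130) and 1.05 (adjusted p = 4.13e-07, SE 0.129), in the same order. ACAT2 was higher by 1.29 (adjusted p = 8.74e-09, SE 0.128) with PD0325901 and 1.59 (adjusted p = 4.12e-10, SE 0.129) with oxozeaenol. SREBF1 was higher by 0.61 and 0.59, and PMVK was lower, with differences of -0.39 (adjusted p = 0.000197, SE 0.0780) and -0.35 (adjusted p = 0.000728, SE 0.0781). None of these 6 genes, all called in both comparisons, overlapped between PI103 and the other agent. The share of all genes without overlap was not counted, so this does not set them apart. SQLE, by contrast, differed by 0.47 (adjusted p = 0.0146, SE 0.154) and 0.30 (adjusted p = 0.120, SE 0.154), and INSIG1 by 0.03 (adjusted p = 0.899, SE 0.174) and 0.10 (adjusted p = 0.672, SE 0.174). With the replicate block, IDI1 was also higher with PD0325901 (0.31, adjusted p = 0.0386) and INSIG2 lower with oxozeaenol (-0.20, adjusted p = 0.0444). The SQLE call against PD0325901 was lost without PI103 replicate 1 or PD0325901 replicate 2 (0.32 to 0.41, adjusted p up to 0.0890).

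**Figure D4:**
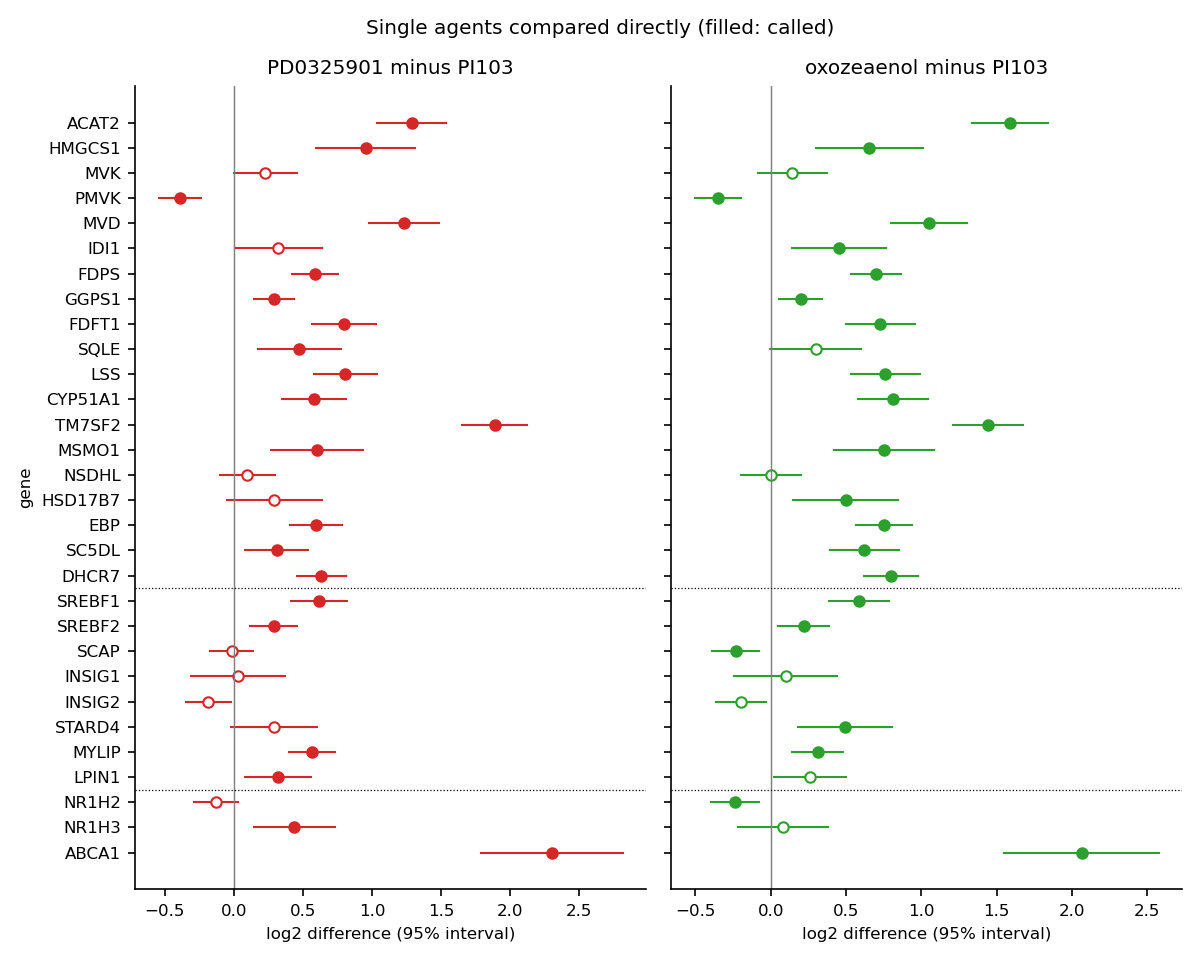
Difference in log2 level (horizontal axis) between PD0325901 and PI103 in the left panel and between oxozeaenol and PI103 in the right one for each tested gene, with lines for the 95% confidence interval and filled points at an adjusted p under 0.05. ABCA1 lies farthest to the right in both panels, and PMVK is the synthesis gene with filled points left of 0.

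Of the 30 tested genes, 3 were higher and 1 lower with PD0325901 than with oxozeaenol, where 15.1% of all genes were higher and 13.4% lower. TM7SF2 was higher by 0.44 (adjusted p = 0.00597, SE 0.116), without overlap. MYLIP was higher by 0.26 (adjusted p = 0.0269, SE 0.0854), SCAP by 0.22 (adjusted p = 0.0439, SE 0.0800), and SC5DL differed by -0.31 (adjusted p = 0.0467, SE 0.116). These last 3 calls each depended on single libraries. MYLIP lost its call without PD0325901 replicate 2 or oxozeaenol replicate 2 or 4 (0.21 to 0.24, adjusted p up to 0.103). SCAP (0.17 to 0.23, adjusted p up to 0.135) and SC5DL (-0.32 to -0.25, adjusted p up to 0.139) lost theirs in 6 of 8 fits, all but those without PD0325901 replicate 4 or oxozeaenol replicate 1. With the replicate block ACAT2 (-0.30, adjusted p = 0.00422) and NR1H3 (0.36, adjusted p = 0.0462) were also called.

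Next to their single agents, the combinations were lower than PD0325901 or oxozeaenol in most synthesis genes and differed from PI103 in 7 and 8 of the 30 genes. PI103 plus oxozeaenol was lower than oxozeaenol in 18 of the 30 genes, 15 of them synthesis genes, and higher in 0, where 7.59% of all genes were higher and 7.28% lower. Against PI103 it was higher in 5 and lower in 2, against 9.39% and 8.92% of all genes. PI103 plus PD0325901 was lower than PD0325901 in 16, 12 of them synthesis genes, and higher in 0, where 8.06% of all genes were higher and 10.0% lower. Against PI103 it was higher in 5 and lower in 3, against 18.8% and 19.9% of all genes. Without 1 library, 13 to 21 genes were called for PI103 plus oxozeaenol against oxozeaenol. In such fits MSMO1 lost that call in 4 of 8, and NSDHL and HSD17B7 in 5 of 8. For PI103 plus PD0325901 against PD0325901, 13 to 16 genes were called. There MYLIP lost its call in 6 of 8 fits and NSDHL in 2. Each agent in a combination was at 50% of its single dose, so dose and combination cannot be told apart in these comparisons.

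The drop from the single agent was largest at ABCA1, ACAT2 and MVD. For ABCA1 the difference of PI103 plus oxozeaenol from oxozeaenol was -1.29 (adjusted p = 0.00141, SE 0.253). For ACAT2 the difference was -0.98 (adjusted p = 1.14e-05, SE 0.127) from oxozeaenol and -0.94 (adjusted p = 1.53e-05, SE 0.127) from PD0325901. For MVD it was -0.91 (adjusted p = 3.46e-05, SE 0.129) and -0.95 (adjusted p = 1.61e-05, SE 0.129), and for FDFT1 -0.73 (adjusted p = 0.000149, SE 0.117) and -0.79 (adjusted p = 4.58e-05, SE 0.117). DHCR7 differed by -0.59 (adjusted p = 0.000102, SE 0.0906) and -0.72 (adjusted p = 5.75e-06, SE 0.0908). ABCA1 differed from PD0325901 by -0.88 (adjusted p = 0.0160, SE 0.247), a call lost without PD0325901 replicate 2 or combination replicate 1 or 3 (-0.78 to -0.72, adjusted p up to 0.0627). With the replicate block, IDI1 (-0.43, adjusted p = 0.0143) and STARD4 (-0.40, adjusted p = 0.0157) were also lower than with oxozeaenol, and HSD17B7 (-0.39, adjusted p = 0.0228) than with PD0325901. SQLE did not pass either test, at -0.10 (adjusted p = 0.721, SE 0.154) and -0.19 (adjusted p = 0.416, SE 0.154). HMGCS1 differed by -0.69 (adjusted p = 0.0103, SE 0.180) from PD0325901 and by -0.55 (adjusted p = 0.0417, SE 0.180) from oxozeaenol, the latter lost in 7 of 8 fits, all but the one without oxozeaenol replicate 1 (-0.59 to -0.48, adjusted p up to 0.125).

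Against PI103, TM7SF2 was higher in both combinations, by 0.75 (adjusted p = 3.95e-05, SE 0.117) with oxozeaenol and 1.32 (adjusted p = 3.29e-09, SE 0.118) with PD0325901. SREBF2 was higher by 0.33 (adjusted p = 0.00791, SE 0.0866) and 0.26 (adjusted p = 0.0184, SE 0.0866) in the same order, the second lost without PI103 replicate 1 or combination replicate 1 or 2 (0.22 to 0.23, adjusted p up to 0.0737). ABCA1 was higher by 1.42 (adjusted p = 0.000151, SE 0.260) with PD0325901 added and by 0.78 (adjusted p = 0.0401, SE 0.261) with oxozeaenol added. The second ABCA1 call was lost in the paired fit (adjusted p = 0.0517) and in 6 of 8 fits without 1 library, all but those without PI103 replicate 3 or combination replicate 1 (0.63 to 0.80, adjusted p up to 0.130). MVK was lower than with PI103 in both, with differences of -0.39 (adjusted p = 0.0186, SE 0.117) and -0.41 (adjusted p = 0.00635, SE 0.117), and the first was lost without PI103 replicate 2 or 4 or combination replicate 1 (-0.37 to -0.28, adjusted p up to 0.109). PMVK was lower with PD0325901 added, at -0.45 (adjusted p = 7.32e-05, SE 0.0781). The other genes called against PI103 were ACAT2 (0.61 with oxozeaenol added, 0.35 with PD0325901 added), FDPS (0.29 with oxozeaenol added), MYLIP (0.31 with PD0325901 added) and NSDHL (-0.32 and -0.26). NSDHL lost these calls in 5 and 7 of 8 fits (-0.33 to -0.28, adjusted p up to 0.0999; -0.28 to -0.21, adjusted p up to 0.127), ACAT2 with PD0325901 added in 5 (0.28 to 0.33, adjusted p up to 0.111) and FDPS without PI103 replicate 1 or combination replicate 2 (0.26 to 0.27, adjusted p up to 0.0690). With the replicate block, CYP51A1 passed with oxozeaenol added (0.34, adjusted p = 0.0176), and MVD (0.28, adjusted p = 0.0304), LSS (0.26, adjusted p = 0.0456) and SC5DL (0.26, adjusted p = 0.0174) with PD0325901 added.

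A further reference is the mean of the 2 single-agent levels on the log2 scale. A combination at 50% doses would lie there if log2 responses were linear in dose and the effects of the 2 agents added up. A departure from the mean does not tell which of these 2 conditions failed. PI103 plus oxozeaenol lay below that mean in 4 of the 30 genes and above it in 0, where 1.10% of all genes lay below and 2.88% above. The 4 were MVK at -0.47 (adjusted p = 0.00854, SE 0.103), MVD at -0.39 (adjusted p = 0.0499, SE 0.113), FDFT1 at -0.37 (adjusted p = 0.0401, SE 0.103) and NSDHL at -0.32 (adjusted p = 0.0409, SE 0.0896). The MVK call held without any 1 of the 12 libraries, and MVK libraries of the combination lay below those of both agents. MVD lost its call in 10 of 12 such fits (-0.42 to -0.33, adjusted p up to 0.215), FDFT1 in 9 (-0.40 to -0.33, adjusted p up to 0.167) and NSDHL in 9 (-0.33 to -0.28, adjusted p up to 0.164). MVK itself measured 17.1, 18.3, 18.3 and 18.2 CPM with the combination, against 19.6, 28.98, 20.1 and 25.8 with PI103 and 24.9, 24.6, 30.3 and 24.8 with oxozeaenol.

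PI103 plus PD0325901 lay below the mean of its agents in 9 of the 30 genes and above it in 1, where 11.1% of all genes lay below and 10.8% above. MVK at -0.53 (adjusted p = 0.000799, SE 0.103), EBP at -0.48 (adjusted p = 0.000245, SE 0.0837), DHCR7 at -0.41 (adjusted p = 0.000796, SE 0.0796), FDFT1 at -0.40 (adjusted p = 0.00771, SE 0.103) and FDPS at -0.28 (adjusted p = 0.00843, SE 0.0750) were below it in every fit without 1 library. MVK measured 16.8, 18.4, 17.6 and 18.04 CPM here and 22.3, 32.6, 29.01 and 26.6 CPM with PD0325901 alone, without overlap. NSDHL (-0.31) lost its call without combination replicate 1 (-0.26, adjusted p up to 0.0589), and PMVK (-0.25) without combination replicate 2 (-0.21, adjusted p up to 0.0658). MVD (-0.33) lost its call in 6 of 12 fits (-0.31 to -0.28, adjusted p up to 0.104) and LPIN1 (-0.30) in 8 (-0.34 to -0.24, adjusted p up to 0.111). The 1 gene above the mean was TM7SF2 at 0.38 (adjusted p = 0.00838, SE 0.0990), a call that rested on combination replicate 2, at 102 CPM next to 68.1 to 69.2 CPM in the rest, and was lost without it (0.21, adjusted p up to 0.124). With the replicate block ACAT2 (-0.31, adjusted p = 0.00188), CYP51A1 (-0.24, adjusted p = 0.0407) and SREBF1 (-0.22, adjusted p = 0.0292) were also called below the mean, and for PI103 plus oxozeaenol LPIN1 (-0.36, adjusted p = 0.0313) was called below and SREBF2 (0.22, adjusted p = 0.0460) above.

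**Figure D5:**
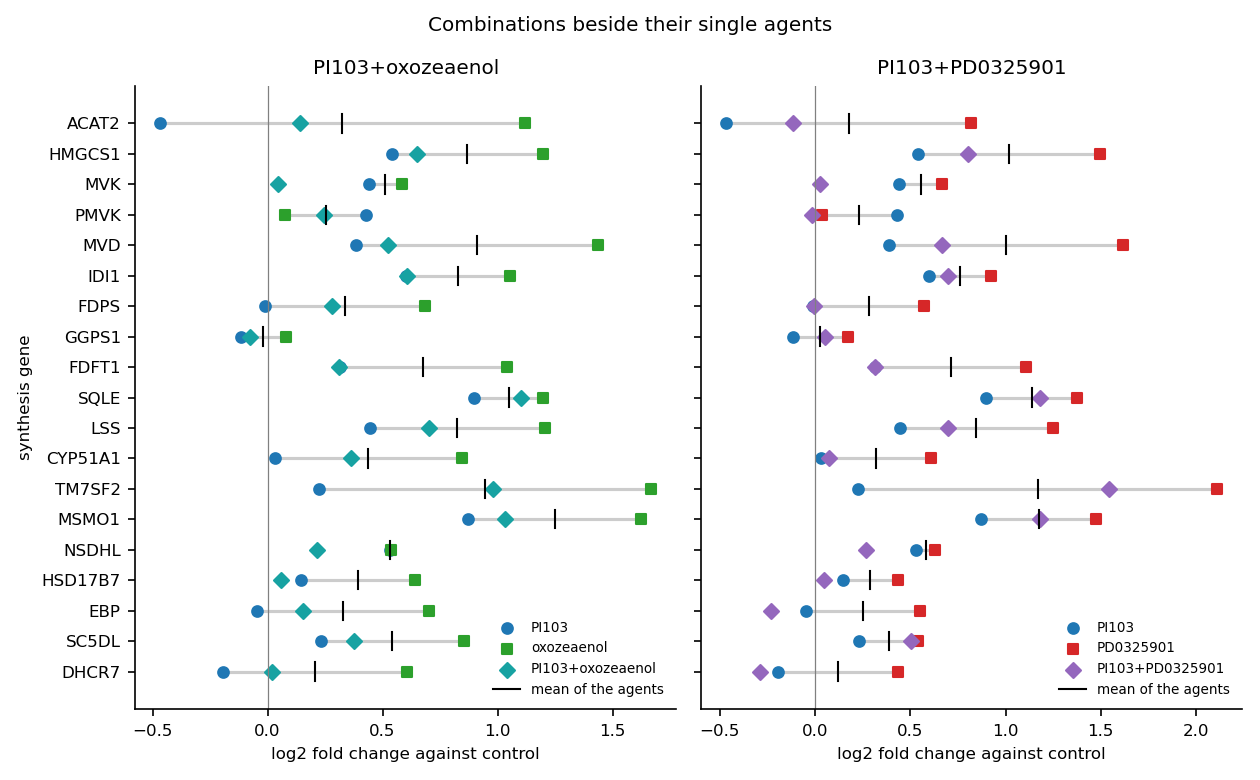
Log2 fold change against control (horizontal axis) of the 19 synthesis genes with PI103 (circles), the other single agent (squares) and the combination (diamonds), for oxozeaenol in the left panel and PD0325901 in the right one. Grey lines join the agents and black ticks mark their mean. The MVK diamond lies near 0 in both panels (0.05 and 0.03), left of both agents, and the TM7SF2 diamond of PI103 plus PD0325901 (1.54) lies right of its tick.

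Of 22 other genes of sterol transport, storage and sensing, 20 were tested, and 6 rose and 4 fell with PI103, 7 and 5 with PD0325901, 6 and 6 with oxozeaenol, 7 and 5 with PI103 plus oxozeaenol, and 8 and 8 with PI103 plus PD0325901. These counts lie near the shares of all genes that rose (26.2%, 28.7%, 25.7%, 27.7% and 32.2% in that order) and fell (25.2%, 29.9%, 26.1%, 27.9% and 32.6%). NPC2, which carries cholesterol out of lysosomes, rose under all 5 treatments, by 1.02 to 1.42. RXRA, the partner of the liver X receptors, rose under all 5 by 0.61 to 1.03, and TMEM97, a membrane protein that binds the lysosomal cholesterol transporter NPC1, by 0.29 to 1.06. Another 16 genes act in the branch that makes other products from farnesyl or related diphosphates, or process those products. Of these, 3 rose and 10 fell with PI103, 1 and 8 with PD0325901, and 2 and 8 with oxozeaenol. With PI103 plus oxozeaenol 3 rose and 10 fell, and with PI103 plus PD0325901 2 and 13. Of all genes, 25.2%, 29.9%, 26.1%, 27.9% and 32.6% fell and 26.2%, 28.7%, 25.7%, 27.7% and 32.2% rose, in that order. TRIT1, which adds an isoprenoid group to transfer RNA, changed by -0.84 to -0.39, and FNTA, a subunit shared by protein prenyltransferases, by -0.61 to -0.27, both called lower in all 5. The medians of this branch lay between -0.43 and -0.17, while those of the 19 synthesis genes lay between 0.27 and 0.85.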

How the data were processed

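The authors deposited 1 table of whole-number read counts per gene symbol for 24 libraries, made with a stranded mRNA kit per the labels' protocols. The genome build is GRCh38 per the submitters' processing notes; the aligner, counting program, annotation and strand setting are not given in the sources used here. The table closes with 5 tallies of unassigned reads (10.7% to 16.5% of each library), which entered neither library sizes nor tests. Groups were taken from sample titles, because the treatment field numbers compound names upward.

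Genes kept by filterByExpr (13947 of 23368) were TMM-normalised, and a model was fitted in edgeR 4.0.16 under R 4.3.3 (robust quasi-likelihood, 1 coefficient per group, all 24 libraries, common biological coefficient of variation 0.131). The edgeR two-sided quasi-likelihood test gave p-values, adjusted by Benjamini-Hochberg over all genes of a contrast, and calls were made at an adjusted p under 0.05. Log2 levels used a prior count of 2. The replicates are biological per the series' design text, and p-values measure the spread between these cultures of 1 line. The script was tested on simulated data.

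The batch number in the labels pairs samples, and the main fit did not use it. Deviations from group means correlated at a mean of 0.120 over 60 same-batch pairs (47 positive). The mean of -0.0394 over 180 other pairs (73 positive) is largely set by centring each group, so it is not separate evidence of pairing. Alternatives were the replicate block, DESeq2 1.42.0, RLE scaling, no filter, the libraries of the contrast alone, and leaving out each library. All 31 genes are named, and from each list of other pathway genes the 3 called in most treatments, ties by mean absolute change; 1 of these is not reported here. The genes and lists were chosen with earlier results of these data known. Overlaps are from GENCODE release 29, and promoters from RefSeq on GRCh38.p14.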

Additional observations from a re-analysis of the deposited data

Results flagged for a closer look

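Of 180 groups of 4 libraries (30 genes in 6 groups), 10 held 1 library whose gap to the nearest of the other 3 was large for the range of its group. About 1 in 20 groups is marked in this way by chance. Control held 3 of the 10. ACAT2 measured 141 CPM in control replicate 1 and 172 to 176 CPM in the others. FDFT1 measured 309.5 CPM in control replicate 3 and 257 to 264 CPM in the others. NR1H3 measured 5.97 CPM in control replicate 4 and 4.66 to 4.79 CPM in the others.

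PI103 with oxozeaenol held 4. MVK measured 17.1 CPM in replicate 1 against 18.2 to 18.3 CPM, and PMVK measured 34.0 CPM in replicate 4 against 38.2 to 38.9 CPM. CYP51A1 measured 209 CPM in replicate 2 against 186 to 188 CPM, and MSMO1 measured 364 CPM in replicate 4 against 298 to 307 CPM. In PI103 with PD0325901, replicate 2 stood above the other 3 for MVD, at 55.6 CPM against 40.2 to 42.2 CPM, and for TM7SF2, at 102 CPM against 68.1 to 69.2 CPM. With oxozeaenol, MVK measured 30.3 CPM in replicate 3 and 24.6 to 24.9 CPM in the others.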

How the results depend on the processing

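Over the alternatives run, 0 of the called changes reversed direction. Some changes near 0 that had not passed the test changed sign without 1 library. With PI103, FDPS (-0.06 to 0.03, lowest adjusted p 0.621) and CYP51A1 (-0.05 to 0.19, lowest adjusted p 0.148) did so and still did not pass. Of 420 gene changes (30 genes, 14 comparisons), DESeq2 kept 413 on the same side of the threshold, edgeR with RLE scaling 418, the replicate block 400, no filter on low counts 405 and the libraries of the contrast alone 392. Over fits that each left out 1 library, 3361 stayed on the same side, 201 calls were lost and 38 gained. Among counts of calls, the replicate block moved the genes of SREBP control lowered by oxozeaenol from 1 to 2, by SREBF1, and changed no other of these counts by over 1.5 times. The paired fit's calls on single genes stand beside their values above. Without the filter, which brings in ABCG1, efflux genes lowered came to 2 with PI103 (main 1), 2 with oxozeaenol (main 1) and 1 with PI103 and oxozeaenol (main 0), and genes called between PD0325901 and oxozeaenol to 2 (main 4). With only the libraries of the contrast, efflux genes lowered by oxozeaenol came to 0, synthesis genes lowered by PI103 and PD0325901 to 1 (main 2), genes called between PD0325901 and oxozeaenol to 1, and those between PI103 with oxozeaenol and PI103 to 11 (main 7). Apart from ABCG1, the cause was not tested.

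Without 1 library, synthesis genes lowered numbered 1 to 2 with PI103 and 1 to 2 with PI103 and PD0325901, SREBP control genes lowered by oxozeaenol 1 to 2, efflux genes lowered by oxozeaenol 0 to 1, and efflux genes raised by PI103 and PD0325901 0 to 1. Synthesis genes raised numbered 8 to 11 with PI103, 16 to 18 with PD0325901, 17 to 17 with oxozeaenol, 10 to 13 with PI103 and oxozeaenol and 8 to 11 with PI103 and PD0325901. Genes called numbered 1 to 5 between PD0325901 and oxozeaenol, 5 to 9 between PI103 with PD0325901 and PI103, and 1 to 4 between PI103 with oxozeaenol and the mean of its agents. Against PI103, they numbered 18 to 23 with PD0325901, 17 to 23 with oxozeaenol and 5 to 6 with PI103 and oxozeaenol. Between PI103 with PD0325901 and the mean of its agents they numbered 7 to 11. ABCG1, at 0 to 4 counts, is below what this depth can compare.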
